A study of Haberlea rhodopensis with 10 samples.

Results

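Among the assembled leaf transcripts (unigenes) of Haberlea rhodopensis, a plant that survives the drying of its leaves, 7 of 142473 had Protein E6 as their best Swiss-Prot hit. They were picked by annotation, as unigenes named Protein E6 with at least 1 FPKM (fragments per unigene, corrected for its length and for the library total) in at least 2 libraries, and all 7 passed this filter together with 85267 unigenes in total. The group was followed because CL10319.Contig5 fell from over 1000 FPKM in fresh leaves to near 0 in drying. The levels in fresh and drying leaves therefore chose the gene and are given as a description with no test. Rehydrated leaves played no part in the choice and were tested against fresh leaves. Choosing on a high level in fresh leaves favours a lower value in rehydrated ones, so that test is not free of the choice. The member closest to the limit of the filter was CL11273.Contig2, whose second highest library had 4.02 FPKM, and no Protein E6 unigene was outside it.

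Whole mature leaves gave RNA for 10 libraries, 2 for each of 5 stages. The stages were regularly watered plants (F, relative water content about 100%), plants from which water was withheld down to about 75% (D75) and about 20% (D20), the dry state below 5% (DT), and plants watered again (R, about 100%). These water contents are those of the sample labels, and the paper gives somewhat lower ones for F and R and a slightly higher one for DT. Pot plants about a year old, raised from in vitro propagation, took 8 days or more to dry fully, stayed dry for 10 days and recovered for 1 week, and the D75 and D20 leaves were taken on the way down. Each stage drew on at least 4 plants, and nothing says how these were divided over the libraries. The p-values therefore measure the spread between the 2 libraries of a stage, pooled over the 5 stages, and these libraries may share plants.

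E6 was described in cotton (Gossypium hirsutum), where its transcript is very abundant in the fibres, single cells of the seed coat epidermis, during their elongation. The protein has no established biochemical function. Because of that setting it is used as a marker of rapid cell extension, the process in which expansins and enzymes of xyloglucan, cellulose and pectin loosen and rebuild the cell wall. All these leaves were mature and no growth was measured in them, so the word marker rests on cotton and was not checked here.

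The 7 unigenes came from 2 assembly clusters. Cluster CL10319 held Contig1 (370 bases), Contig2 (1277 bases), Contig3 (1311 bases), Contig4 (1270 bases) and Contig5 (1327 bases), and cluster CL11273 held Contig1 (1121 bases) and Contig2 (784 bases). In Swiss-Prot all 7 hit the cotton protein, with scores between 68.9 for CL10319.Contig1 and 118 for CL10319.Contig4. In the Nr database Contigs 2 to 5 of CL10319 hit one E6-like protein of sesame (Sesamum indicum), while both contigs of CL11273 and the short CL10319.Contig1 hit another. CL10319.Contig1 thus went with the other cluster by its Nr hit. The KEGG entry of CL10319.Contig2 names another protein, RNA polymerase II-associated factor 1. Contigs of one cluster are similar in sequence and can take each other's reads, so the division of fragments among them is uncertain.

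CL10319.Contig5 was among the most abundant transcripts of fresh leaves and was all but absent at D20 and DT. The F libraries held 10711 and 13730 of its fragments, the D75 libraries 1715 and 1874, the D20 libraries 1 and 0, the DT libraries 2 and 1, and the R libraries 5015 and 1309. As deposited, fresh leaves had 927 and 2288 FPKM, D75 leaves 106 and 112, D20 leaves 0.0601 and 0, DT leaves 0.166 and 0.0778, and R leaves 441 and 113. The F libraries were the highest, R replicate 1 came next, and the D20 and DT libraries were at the limit of detection, with 0 to 2 fragments each.

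Scaled for library composition, which all levels below are, CL10319.Contig5 stood at 895 and 1586 FPKM in F, with a mean of 1241 ± 489 (SD, n = 2). At D75 it stood at 88.4 and 117 FPKM (103 ± 20.2), or 8.28% of F. The fall was therefore well under way at a water content of about 75%, a stage at which both libraries lay below both F libraries by a factor of 12.1 between the means. At D20 the level was 0.0379 ± 0.0537 FPKM and at DT 0.133 ± 0.0672 FPKM. The D20 libraries (0.0759 and 0 FPKM) and the DT libraries (0.180 and 0.0855 FPKM) lie side by side, and with 1 and 3 fragments in all no difference between the 2 stages was detectable at this depth. Counted over both libraries of a stage, F was 30850-fold above D20, with a 95% counting interval of 5537 to 1219000, and 8999-fold above DT, with an interval of 3079 to 43640. Intervals of this kind cover counting error only and not the spread between plants.

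**Figure D1:**
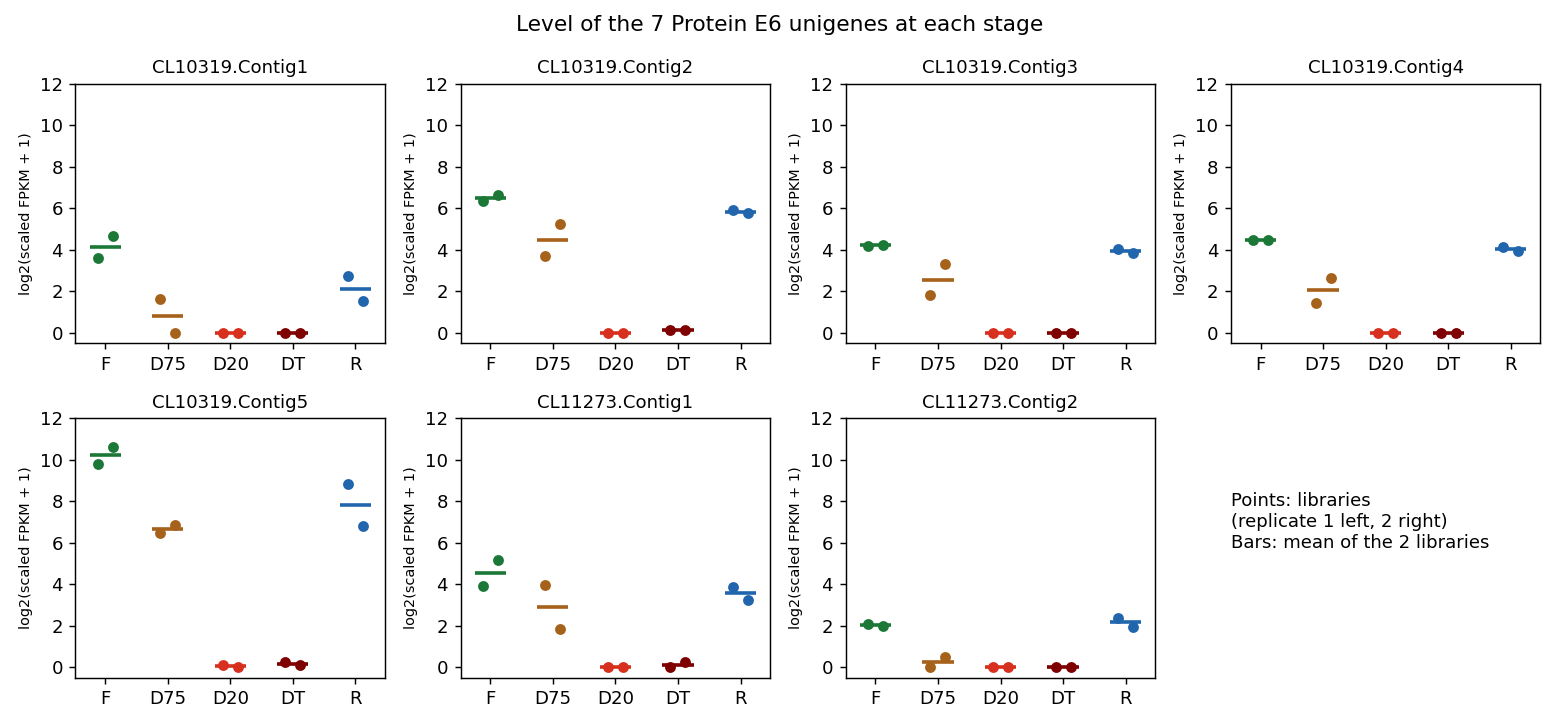
Levels of the 7 Protein E6 unigenes by stage, as log2(scaled FPKM + 1), with 1 point per library and a bar at the mean of the 2 libraries. All 7 lie at or near 0 at D20 and DT and are back above 1 scaled FPKM at R, where the 2 libraries of CL10319.Contig5 lie furthest apart.

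Within each library CL10319.Contig5 ranked 90 and 26 by deposited FPKM in F, 728 and 859 at D75, and 186 and 861 at R. It took 0.123% and 0.304% of all unigene fragments in the F libraries and 0.0141% and 0.0148% at D75. The rank and the share both place the second R library (0.015%) with the D75 libraries and the first (0.0585%) between them and F. Of 83 unigenes with a mean of at least 1000 FPKM in F, CL10319.Contig5 was the only one left with at most 3 fragments at D20, and also the only one at DT. This count repeats the fall for which CL10319.Contig5 was chosen and lends it no support. Whole leaves were sampled, so fewer cells of a type that makes the transcript and less of it per cell cannot be told apart.

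The other 6 unigenes started far lower and reached the same floor. In F, CL10319.Contig2 stood at 80.8 and 97.8 FPKM, and CL10319.Contig4, Contig3 and Contig1 at 21.3 and 20.9, 16.9 and 17.8, and 11.1 and 24.0 FPKM. CL11273.Contig1 stood at 14.1 and 35.4 FPKM and CL11273.Contig2, the lowest, at 3.25 and 2.93 FPKM. The means of CL10319.Contig5 and CL10319.Contig2 were apart by more than the spread of either, while the ranges of CL10319.Contig1, Contig3 and Contig4 and CL11273.Contig1 in F overlap in part. CL10319.Contig5 thus carried most of the E6 signal of fresh leaves.

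At D75 the 6 lesser unigenes stood at 5.79% to 34.6% of their F mean. CL10319.Contig2 had 12.1 and 36.7 FPKM, CL10319.Contig3 2.45 and 8.72, and CL10319.Contig4 1.72 and 5.15 FPKM, with D75 replicate 2 above replicate 1 in each. CL11273.Contig1 went the other way, with 14.5 FPKM in replicate 1 and 2.59 in replicate 2, a 5.62-fold gap, and replicate 1 lay within the F range. In 6 of 7 members, all except CL11273.Contig1, both D75 libraries lay below both F libraries, as did 21.8% of all unigenes tested. The fall in drying chose the gene, contigs of a cluster can take each other's reads, and all were set against the same F libraries. The count is therefore a description and no test. CL10319.Contig1 had 2.03 and 0 FPKM at D75 and CL11273.Contig2 0 and 0.423 FPKM, so these 2 low unigenes were already at the limit of detection in 1 library each.

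At D20, 6 of 7 members had 0 fragments in both libraries, and CL10319.Contig5 held the only E6 fragment among all of them. At DT, 4 of 7 had 0 fragments in both libraries, and CL10319.Contig2, CL11273.Contig1 and CL10319.Contig5 shared 7 fragments. No member exceeded 0.202 FPKM in any D20 or DT library. For the members at 0 only a lower bound on the fold can be given, with 3 fragments over the stage as the floor. F was at least 735-fold above D20 in CL10319.Contig2, at least 175.5-fold in CL10319.Contig4, at least 169-fold in CL11273.Contig1, at least 148-fold in CL10319.Contig3, at least 39.98-fold in CL10319.Contig1 and at least 15.99-fold in CL11273.Contig2. These bounds follow the level in F and set no order of response among the members. Over all unigenes tested, 17.8% were called lower and 14.0% higher at D20, and 12.4% lower and 10.1% higher at DT, with an edgeR adjusted p below 0.05. The median log2 difference of all unigenes from F was -0.33 at D20 and -0.22 at DT, against which these falls are to be read.

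Summed over the 7 members, the fragments numbered 27490 in F, 4963 at D75, 1 at D20, 7 at DT and 8481 at R. The summed level was 1042 and 1785 FPKM in F, then 121 and 171 FPKM for D75, 0.0759 and 0 for D20, 0.274 and 0.377 for DT and lastly 569 and 206 for R. At R the E6 sum was above both D75 libraries and below both F libraries, and in the dry leaves it was at or near 0.

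Contig5 lost part of its share within its own cluster at D75 and R. It took 88.4% (95% Wilson interval 87.8 to 88.9%) and 92.0% (91.5 to 92.4%) of the CL10319 fragments in the F libraries. The share was 84.5% (82.8 to 86.0%) and 70.6% (68.8 to 72.3%) at D75. At R it was 83.6% (82.6 to 84.5%) and 58.9% (56.9 to 60.9%). The 4 libraries of D75 and R were all below the 2 of F, but within D75 and within R the libraries differed by more than R replicate 1 differed from F replicate 1. The intervals cover counting error only.

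**Figure D2:**
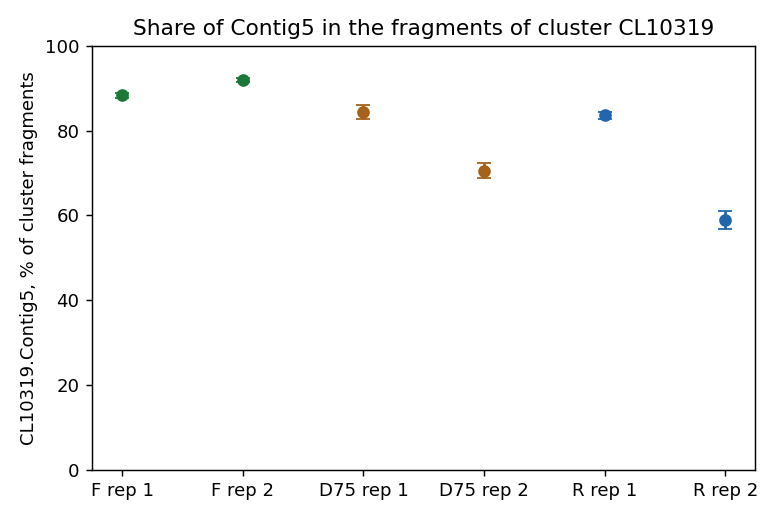
Percent of the fragments of cluster CL10319 that fell on Contig5, per library, with 95% Wilson intervals. F lies at 88.4% and 92.0%, and the lowest value, 58.9%, is R replicate 2. D20 and DT are left out because the cluster had at most 3 fragments in a library there.

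The same can be read from levels. CL10319.Contig5 over the sum of its long companions, Contigs 2 to 4, was 7.52 and 11.6 in F, 5.45 and 2.32 at D75, and 5.01 and 1.39 at R. The companions summed to 119 and 137 FPKM in F and to 90.8 and 80.3 FPKM at R, a narrow gap, whereas CL10319.Contig5 had 895 and 1586 FPKM in F and 455 and 112 FPKM at R. The 2 R libraries thus differed widely in CL10319.Contig5 and little in Contigs 2 to 4. Whether reads moved between these similar contigs was not tested.

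Rehydration brought every E6 unigene back to a measurable level, between 21.0% and 114% of its F mean. CL10319.Contig5 had 455 and 112 FPKM at R, a mean of 283 ± 242 (SD, n = 2), or 22.8% of F. Its 2 R libraries differed 4.06-fold, against 1.77-fold in F and 1.32-fold at D75, and R replicate 2 lay between the D75 libraries. R was 7245-fold above D20 over both libraries, with a counting interval of 1300 to 286200, and 2113-fold above DT, with an interval of 723 to 10250. The dry-state floor and the R level of CL10319.Contig5 therefore do not overlap, while D75 and R do.

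Against F, no member passed the test at R. The edgeR quasi-likelihood test over 85267 unigenes called 0 of 7 at an adjusted p below 0.05, and it called 0.00938% of all unigenes lower and 0.0293% higher. CL10319.Contig5 was at a log2 difference of -2.13 (SE 0.64, 95% interval -3.52 to -0.74), a level 0.228 times that of F with an interval of 0.0869 to 0.600. Its unadjusted p was 0.0059 and its edgeR adjusted p 0.37, and both R libraries were below both F libraries. Over 18 alternatives the difference stayed negative, between -3.47 without R replicate 1 and -1.49 without R replicate 2, with adjusted p between 0.046 and 1. It passed the threshold without the filter on low values (adjusted p 0.049), with DESeq2 (0.049) and without D75 replicate 1 (0.046) or replicate 2 (0.048). In every other alternative it did not pass. The edgeR adjusted p was 0.06 with the 4 R and F libraries alone and 0.30 for the cluster sum. It was 0.35 with median-of-ratios scaling and 0.41 with the replicate block. Whether CL10319.Contig5 was called thus depended on the setting. F, whose high level chose the gene, is also 1 side of this test.

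Among the remaining members CL10319.Contig1 lay as far below F as CL10319.Contig5, and the other 5 lay closer to F. CL10319.Contig2, with 59.0 and 52.8 FPKM at R, was at a log2 difference of -0.68 (interval -1.73 to 0.37), CL10319.Contig3, with 15.1 and 13.3 FPKM, at -0.28 (-1.47 to 0.90), and CL10319.Contig4, with 16.7 and 14.2 FPKM, at -0.45 (-1.55 to 0.65). CL11273.Contig1, with 13.7 and 8.60 FPKM, was at -1.14 (-2.75 to 0.46), and its range ended just below that of F. CL10319.Contig1, with 5.53 and 1.84 FPKM, was at -2.24 (-4.38 to -0.10) with an unadjusted p of 0.042 and an adjusted p of 0.56 by edgeR. It was called, with an adjusted p of 0.034, only in the alternative that fitted the 4 R and F libraries alone. CL11273.Contig2, with 4.14 and 2.90 FPKM, was the single member with a positive value, 0.18 (-1.64 to 2.01), and it turned to -0.10 without R replicate 1. All these intervals except that of CL10319.Contig1 include 0 and each reaches below a log2 difference of -1, so they leave the size of any difference from F undetermined.

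**Figure D3:**
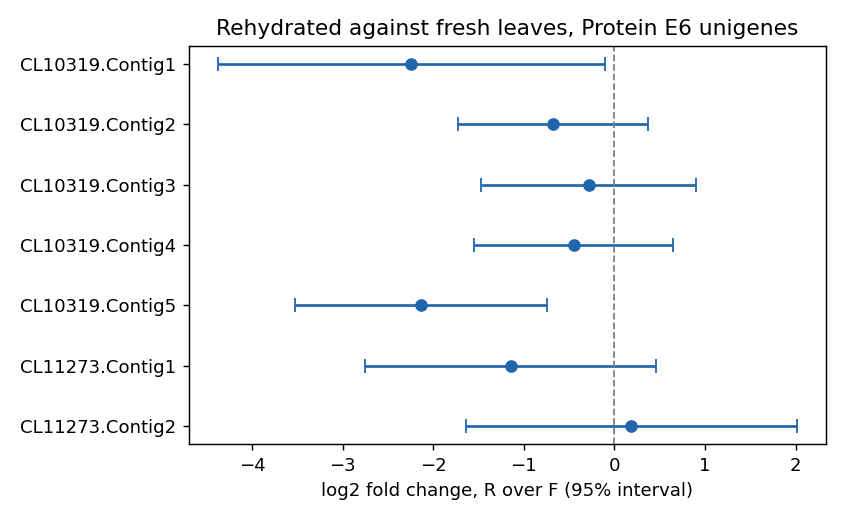
Log2 fold change of R over F for the 7 Protein E6 unigenes from the edgeR fit, with 95% intervals. The values of CL10319.Contig1 and CL10319.Contig5 are near -2 with intervals below 0, and the other 5 intervals include 0.

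In 6 of 7 members, all except CL11273.Contig2, both R libraries were below both F libraries, against 22.8% of all unigenes tested. The members of a cluster share reads and are not independent, and all of them were set against the same 2 F libraries. At an unadjusted p under 0.05 stood 2 of 7 members, CL10319.Contig1 and CL10319.Contig5. Summed by cluster, CL10319 was at -1.86 (adjusted p 0.30 by edgeR) and CL11273 at -0.87 (adjusted p 0.71), so both sums were lower at R and neither was called.

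Marker sums of the cell types of a leaf moved beside these levels, and their part in the E6 values was not tested. Mesophyll markers (49 of 55 unigenes passed the filter), which encode photosynthetic proteins, summed to 33530 and 32070 FPKM in F, then 14890 and 25950 for D75, 580 and 949 for D20, 3559 and 3205 for DT, and 35250 and 31160 for R. They were thus back at the F level at R, where CL10319.Contig5 was at 22.8% of F. Markers of trichomes and epidermis (54 of 67 passed) summed to 147 and 163 FPKM in F and to 106 and 71.8 for D75. Their sums were 66.1 and 77.1 for D20, 51.4 and 55.4 for DT and 106 and 73.5 for R. The parts of that list differed. From F to D20, unigenes named GLABRA went from 27.5 and 33.5 to 41.2 and 39.6 FPKM, ANTHOCYANINLESS from 29.5 and 29.4 to 11.1 and 15.3, HDG from 40.4 and 34.6 to 11.7 and 17.5, and MERISTEM L1 from 17.4 and 18.8 to 1.38 and 4.72 FPKM. Those named protodermal factor went from 32.3 and 46.5 to 0.601 and 0 FPKM. They were the only part of this list below 1 FPKM at D20. The trait was not particular to them, as FAMA of the guard cell list and laccases and xylem cysteine proteinase of the vascular list were also below 1 FPKM there.

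At R, guard cell markers (19 of 26 passed) summed to 116 and 75.7 FPKM, against 129 and 116 in F, and vascular markers (20 of 25 passed) to 132 and 50.7 FPKM, against 73.0 and 80.4 in F. At D75 the guard cell sum was 33.6 and 50.8 FPKM and the vascular sum 27.0 and 43.7 FPKM, so that all 4 marker sums were below F together with E6 at that stage. In D20 and DT the guard cell sum was between 9.26 and 14.5 FPKM and the vascular sum between 22.1 and 26.1 FPKM. Parts of both lists differed. From F to D20, EPIDERMAL PATTERNING FACTOR went from 112 and 101 to 3.42 and 3.43 FPKM. This name made up most of the guard cell sum in F, so the fall of that sum was mainly its fall. FAMA went from 6.89 and 4.12 to 0.65 and 0.35, and SLAC1 from 9.74 and 10.3 to 8.08 and 6.04. Among vascular markers, laccases went from 19.4 and 25.3 to 0.54 and 0.30 and xylem cysteine proteinase from 13.2 and 22.0 to 0.083 and 0. Vascular cellulose synthases went from 12.2 and 23.25 to 4.03 and 4.81, and COBRA-like protein 4 from 28.2 and 9.79 to 19.8 and 20.95 FPKM. In all 4 marker lists R replicate 1 was above replicate 2, as it was in CL10319.Contig5, most widely in the vascular list. SPEECHLESS, which starts the stomatal lineage, was at 0 or near it at every stage, with 0 and 0.608 FPKM in F, and its 1 unigene did not pass the filter. No unigene was named MYB60, TRIPTYCHON, MIXTA or SUC2.

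The unigenes whose pattern over the 10 libraries was most like that of CL10319.Contig5 were ranked among 5930 unigenes with a mean of at least 10 FPKM and an informative Swiss-Prot name, by Pearson correlation of log2(scaled FPKM + 1). Of these, 199 reached 0.95, so a close likeness was common, and it rests mainly on the gap between the dry stages and the rest. The 10 closest lay between 0.992 and 0.998. They were leucine-rich repeat extensin-like protein 5 (CL12906.Contig3), a wall protein, oleoyl-acyl carrier protein thioesterase (CL5719.Contig2), which releases fatty acids in the plastid, UDP-glucuronate 4-epimerase 6 (CL1778.Contig5), which makes a sugar donor for pectin, remorin (CL710.Contig2), a protein of the plasma membrane, and a subtilisin-like protease (CL2636.Contig7). The others were BEL1-like homeodomain protein 4 (Unigene38612), homeobox-leucine zipper protein ATHB-6 (CL1012.Contig3), expansin-A4 (Unigene17760), 24-methylenesterol C-methyltransferase 2 (Unigene10905), which acts in sterol synthesis, and probable pectate lyase 5 (CL9920.Contig3), which cleaves pectin. Ranked by Spearman correlation 0 of these 10 stayed among the closest 10, and 6 stayed when F replicate 2 was left out.

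Near to it in size of change was probable pectate lyase 5 (CL9920.Contig3), with 311 and 433 FPKM in F, then 20.4 and 81.0 for D75, 0.189 and 0 for D20, 0 and 0.0711 for DT, and 94.9 and 42.2 for R. Expansin-A4 (Unigene17760), of the protein family that loosens walls as cells extend, had 93.9 and 202 FPKM in F, 16.1 and 49.2 at D75, 0 in all 4 libraries of D20 and DT, and 91.9 and 31.7 at R. In both, as in CL10319.Contig5, F replicate 2 was above replicate 1 and R replicate 1 above replicate 2. The ranking ran over these same libraries and favours such a shared order. CL10319.Contig5 was lower at D75 and R, relative to F, than most of the 10. The thioesterase CL5719.Contig2 went with it in order and not in depth, with 3.28 and 3.30 FPKM at D20 against 19.3 and 18.9 in F. The other E6 unigenes had correlations with CL10319.Contig5 between 0.833 for CL11273.Contig2 and 0.984 for CL10319.Contig2.

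**Figure D4:**
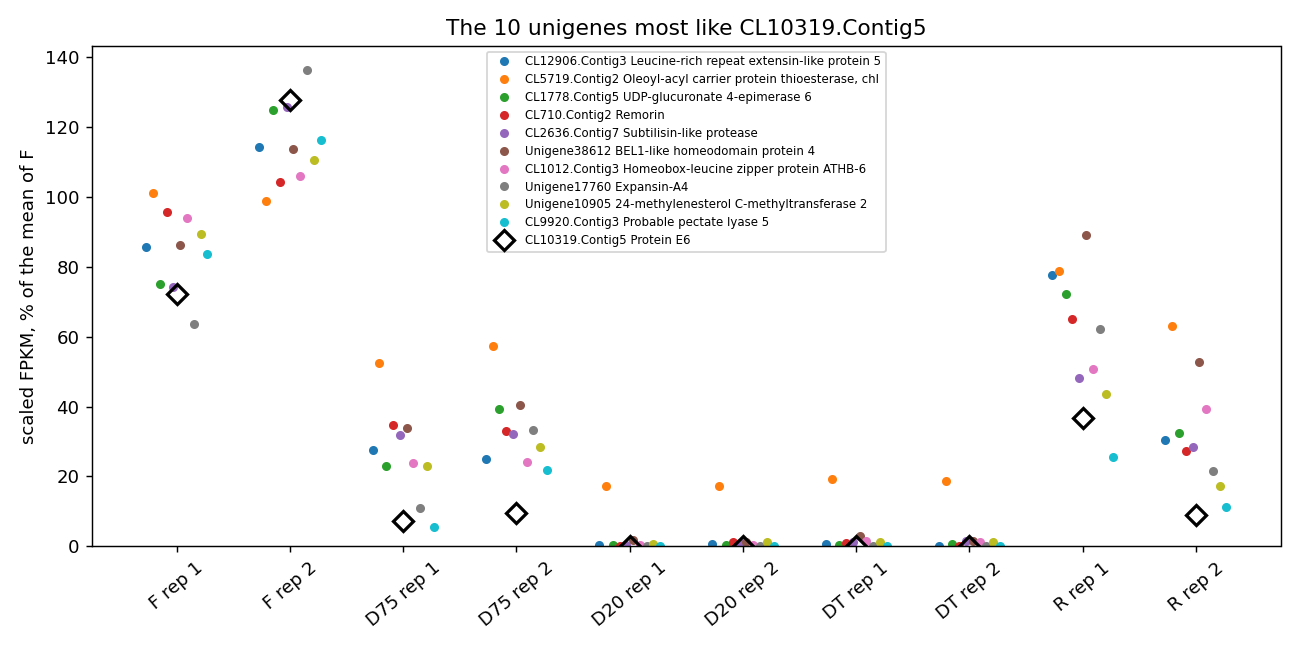
Scaled FPKM of CL10319.Contig5 (diamonds) and of the 10 unigenes most like it (points), per library, as percent of the mean of F. CL10319.Contig5 is at 8.28% of F at D75 and 22.8% at R on average, and apart from the thioesterase CL5719.Contig2 the unigenes lie near 0 at D20 and DT.

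Other genes of wall building and growth were also lower in dry leaves, most of all those of expansins, pectin enzymes, fasciclin-like proteins and gibberellin-regulated peptides. Over 11 lists with 370 unigenes tested, 196 were called lower than F and 30 higher at D20, and 181 lower and 20 higher at DT (edgeR adjusted p below 0.05). This was 53.0% lower and 8.11% higher at D20, against 17.8% and 14.0% of all unigenes, and 48.9% lower and 5.41% higher at DT, against 12.4% and 10.1%. The median log2 difference over the lists was -3.87 at D20 and -3.42 at DT. Called lower at D20 were 22 of 34 expansins (3 higher), 22 of 30 pectate lyases (2 higher), 32 of 49 pectinesterases (1 higher), 20 of 28 fasciclin-like proteins, 17 of 23 gibberellin-regulated peptides, 21 of 39 cellulose synthases and 30 of 60 tubulins, with none higher in the last 4. The xyloglucan enzymes were mixed, with 15 of 38 lower and 9 higher, as were lipid transfer proteins (10 of 31 lower, 3 higher), COBRA proteins (2 of 6 lower, 3 higher) and actins (5 of 32 lower, 9 higher). At DT the lower calls numbered 22 expansins (2 higher), 19 pectate lyases (1 higher), 30 pectinesterases (2 higher), 19 fasciclin-like proteins, 17 gibberellin-regulated peptides (1 higher), 21 cellulose synthases and 26 tubulins. The mixed lists had 16 xyloglucan enzymes lower and 1 higher at DT, 6 lipid transfer proteins lower and 5 higher, 1 COBRA protein lower and 2 higher, and 4 actins lower and 6 higher. The actins called lower, 15.6% at D20 and 12.5% at DT, were close to the share of all unigenes.

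Some of these counts moved with single libraries. Over all lists, leaving out F replicate 2 took the higher calls from 30 to 9 at D20 and from 20 to 6 at DT. Leaving out D20 replicate 1 or 2 gave 10 or 16 higher calls at D20, and leaving out F replicate 1, DT replicate 1 or DT replicate 2 gave 10, 8 or 11 at DT. The cellulose synthases went from 21 lower to 10 at D20 without F replicate 2, to 11 without D20 replicate 1 and to 13 without D20 replicate 2, and at DT to 7 without F replicate 2 or DT replicate 1 and to 9 without DT replicate 2. At DT the tubulins went from 26 lower to 16 without DT replicate 2, the fasciclin-like proteins from 19 to 12 without either DT library, and the xyloglucan enzymes from 16 to 9 without DT replicate 1. The lipid transfer proteins went from 10 lower at D20 to 6 without F replicate 2 or D20 replicate 1, to 5 without D20 replicate 2, and to 18 or 17 without D75 replicate 1 or 2, and from 6 lower at DT to 3 without F replicate 1 or DT replicate 2, to 2 without F replicate 2, and to 13 without either D75 library. The actins went from 5 lower at D20 to 1 without D20 replicate 1, to 2 without D20 replicate 2 or F replicate 2 and to 3 without F replicate 1.

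The lower calls of expansins, pectate lyases, pectinesterases and gibberellin-regulated peptides moved by less at both stages. With each library left out in turn they ran from 19 to 27, 17 to 24, 24 to 35 and 13 to 18 at D20, and from 16 to 25, 15 to 22, 23 to 33 and 12 to 18 at DT. Among the higher calls at D20, those of the xyloglucan enzymes ran from 1 to 11, with 10 to 17 lower, and those of the actins from 2 to 10, with 1 to 6 lower, each with the fewest higher calls without F replicate 2.

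The most abundant expansin, expansin-A8 (Unigene17772), was also close to 0 in dry leaves, with 505 ± 39.5 FPKM in F and 0.169 ± 0.117 at D20, a log2 difference of -11.45 (SE 0.94, adjusted p 2.7e-05 by edgeR), and with 229 ± 113 FPKM at R. Actin-7 (Unigene37023), the most abundant actin, was at 153 ± 31.9 FPKM in F and 211 ± 2.57 at D20, a log2 difference of 0.47 (SE 0.37, adjusted p 0.35 by edgeR). The next most abundant, another actin-7 (CL365.Contig3), fell from 119 ± 17.9 to 46.7 ± 13.9 FPKM, a log2 difference of -1.35 (adjusted p 0.019 by edgeR). At D75, 73 of the 370 were called lower and 0 higher, while 1.16% of all unigenes were called lower and 0.671% higher. At an unadjusted p under 0.05 there were 181 lower and 12 higher, against 8.45% and 8.44% of all unigenes. The count of 73 rested on single libraries. It dropped to 0 when F replicate 2 was left out and to 40 when F replicate 1 was, to between 42 and 44 without any 1 library of D20 or DT, and rose to 158 when D75 replicate 2 was left out. At R, 0 of 370 were called in either direction by edgeR, with a median of -0.53, while 83 were lower and 20 higher at an unadjusted p under 0.05, against 4.21% and 4.54% of all unigenes, and DESeq2 called 13 lower and 1 higher. List medians at R were lowest in pectate lyases (-1.76) and expansins (-1.28). Only those of COBRA proteins (0.21) and xyloglucan enzymes (0.45) were above 0. Lipid transfer proteins (-0.03) and actins (-0.05) lay close to the median of all unigenes tested, -0.00. Of the 370 members, 244 had a negative difference, and whether the lists as a whole shifted was not tested.

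**Figure D5:**
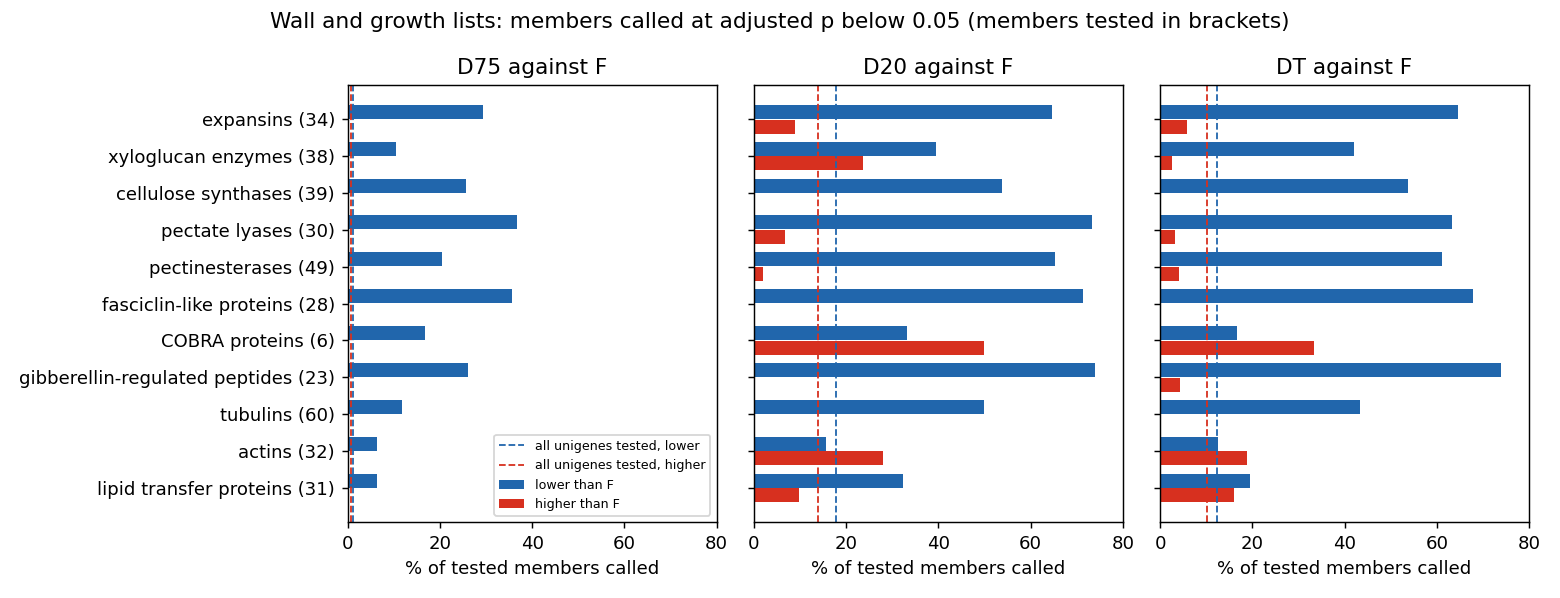
Percent of the tested members of each wall and growth list called lower (blue) or higher (red) than F at an edgeR adjusted p below 0.05, for D75, D20 and DT, with the share over all unigenes as dashed lines. At D20 the lower share is 64.7% in expansins, against 17.8% over all unigenes.

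Unigene fragments ran from 4522835 in F replicate 2 to 12734565 per library. F replicate 2, the shallowest, also had the highest level of CL10319.Contig5, and without it the log2 difference of R from F was -1.70. By the study's read totals the D75 and D20 reads were slightly shorter than those of F, DT and R, so the read length cannot be told apart from the stage at D75 and D20. Whether the libraries of F, DT and R were sequenced together is not stated in the paper.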

How the data were processed

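After trimming with SeqPrep and Sickle, the authors built unigenes with Trinity, no genome being used, and deposited whole fragment counts per unigene and library, naming RSEM for the abundances. The deposited FPKM divide these counts by unigene length and library total, and recomputation gave the same values within 5e-05. Versions are not given in the sources used here, and 0 columns of values were left unused.

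Counts of the 85267 unigenes with at least 1 FPKM in at least 2 libraries were tested with edgeR 4.0.16 (R 4.3.3; TMM, glmQLFit, glmQLFTest) over all 10 libraries with 1 coefficient per stage, 5 residual degrees of freedom and a common biological coefficient of variation of 0.435. The Benjamini-Hochberg adjustment ran over all of these, and a call is an adjusted p below 0.05. As standard error served the log2 difference divided by the root of F. Levels are FPKM rescaled by the TMM factors. Folds over a stage with 0 fragments use a floor of 3 fragments over its 2 libraries, and counting intervals and Wilson intervals are at 95%. The fit was tested on simulated data.

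The members, lists, markers and tests were chosen with earlier results of these data known. Named were all Protein E6 unigenes, the 10 most like CL10319.Contig5 (at most 1 per cluster and description), and, from the 2 most abundant tested members of each list, those that set a scale for E6. Protodermal factor was singled out after its values were seen. Alternatives were a replicate block, median-of-ratios scaling, no filter, the 4 libraries compared alone, cluster sums, limma 3.58.1 on log2(FPKM + 1) and log2(FPKM + 0.1), DESeq2 1.42.0, and each library left out in turn. Tables and figures were made with matplotlib 3.10.9, scipy 1.17.1, numpy 2.4.6 and pandas 2.3.3 under Python 3.11.15.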

Additional observations from a re-analysis of the deposited data

How the results depend on the processing

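The count of Protein E6 unigenes called at R against F was 0 and became 1 with no filter, with the 4 libraries alone and with DESeq2, and ran from 0 to 1 with a library left out. CL11273.Contig2 ran from -0.10 to 0.39 with a library left out, and turned from 0.18 to -0.10 without R replicate 1, to -0.11 with limma on log2(FPKM + 1) and to -0.14 with limma on log2(FPKM + 0.1). The other 6 members kept their sign in every alternative run. DESeq2 gave no adjusted p for CL10319.Contig1 and CL11273.Contig2.

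Of the 370 list members, those lower at D75 (73) numbered 132 with no filter, 0 with the 4 libraries alone, 126 with limma on log2(FPKM + 1) and 0 to 158 with a library left out, and those higher (0) numbered 8, 0, 2 and 0 to 8, with 3 by DESeq2 and 1 with the replicate block. With a library left out, those higher ran from 9 to 37 at D20 (30) and from 6 to 30 at DT (20). Those lower at R (0) numbered 30 with no filter, 47 with the 4 libraries alone, 13 with DESeq2, 6 with limma on log2(FPKM + 1) and 0 to 41 with a library left out, and those higher (0) numbered 8, 12, 1, 1 and 0 to 10. The cause of these shifts was not tested.

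The replicate numbers did not pair the libraries: deviations of same-numbered libraries correlated between -0.176 and 0.091. With the replicate block CL10319.Contig5 was at -2.28 with an adjusted p of 0.41 by edgeR, and still 0 of 7 members were called. With 2 libraries per stage, levels under 3 fragments cannot be told from 0.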
